A study of Mus musculus with 16 samples.

Results

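The genes described here, 9 of the 35275 in the deposited table, are those of myoblast fusion, plasma membrane repair and the caveolae: Tmem8c (Myomaker), Gm7325 (Myomixer), Ncam1, Trim72, Dysf, Myof, Cav1, Cav2 and Cav3. They were picked by name, and each was found as 1 row of the table. RNA was sequenced from 16 cultures of C2C12, an established mouse myoblast line, with PAX7 negative cells used throughout. Control cells were 2 wild-type populations (control lines 1 and 2), and knockout cells were 2 clones, each a line from 1 clone, in which miR-206, miR-1a-1 plus miR-1a-2 had all been removed (triple knockout, tKO). Cells were collected in growth medium with 20% fetal bovine serum (GM), as proliferating myoblasts, or 3 days after the serum was replaced by 2% horse serum (DM3), when C2C12 cells form myotubes. Every line was sampled at each stage in 2 cultures, numbered 1 and 2, which gave 4 groups of 4 libraries, named by genotype and stage (control GM or tKO DM3, for example). In the lists of 4 values given here, the order is line or clone 1 culture 1, line or clone 1 culture 2, line or clone 2 culture 1, line or clone 2 culture 2. The p-values measure the spread between these libraries, from 2 lines with 2 cultures each.

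Skeletal muscle fibres form when mononucleated myoblasts stop dividing, adhere and fuse. Myomaker, a multipass membrane protein, and Myomixer, a small membrane-anchored protein, act on the myoblast surface to merge the lipid bilayers, and NCAM1 is an adhesion molecule that marks myogenic cells. The resulting fibre tears its membrane when it contracts. TRIM72 (also called MG53) gathers vesicles at a tear, dysferlin is a calcium-sensing ferlin that helps these vesicles join the membrane, and its relative myoferlin is a ferlin of myoblasts. Caveolae are small pits of the plasma membrane that flatten under tension. Caveolin-1 and caveolin-2 assemble them in many cell types, and caveolin-3 is the form of mature muscle, where it binds both dysferlin and TRIM72. The deleted microRNAs belong to the muscle-enriched miR-1/miR-206 family, whose members share a seed, the stretch that pairs with sites in the 3′ untranslated regions (3′ UTRs) of target messenger RNAs and lowers them.

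The sequences that tie these genes to the deleted family are its seed and the matches to it. The mature miR-206 sequence from RefSeq (GRCm38.p6, chr1:20679055-20679076, plus strand) has its seed, bases 2 to 8, in capitals:
mmu-miR-206-3p: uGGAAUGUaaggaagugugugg
The longest annotated 3′ UTR of each gene (GENCODE release M21, GRCm38) was searched on the sense strand for the letters ACATTCC (seed match), CATTCCA (6 bases of the match followed by A) and ACATTCCA (both, which overlap). Matches were found in 3 of the 9 genes, Cav2, Myof and Ncam1, and Cav2 alone held the 8-base form; each is shown 5′ to 3′ in the sense of the messenger RNA with the matching letters in capitals:
Cav2 site 1 (chr6:17287460-17287487, plus strand): tagaggcaatACATTCCAacattctagg
Cav2 site 2 (chr6:17287944-17287971, plus strand): tctgtattctACATTCCtatgaatgctt
Myof site (chr19:37899130-37899157, minus strand): gaatgctacagCATTCCAgttgaccaca
Ncam1 site 1 (chr9:49505277-49505304, minus strand): acacacaaacACATTCCtctagtgtctt
Ncam1 site 2 (chr9:49503188-49503215, minus strand): ccagcccctttCATTCCAgggcctgcac
Among 10798 genes tested for expression that have an annotated 3′ UTR, 18.8% held at least 1 such 7- or 8-base match and 4.42% held the 8-base form. The second Ncam1 match lies in the GENCODE gene but beyond the end of the gene as the deposited table lists it. The 3′ UTRs of Trim72 (572 bases), Tmem8c (552), Gm7325 (446), Cav3 (394) and Dysf (229) held none of these letters, nor did the 1998-base 3′ UTR of Cav1. A match is a description of the letters and not evidence of a site in use.

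Values were deposited as FPKM, fragments per kilobase of gene length scaled by library size, so levels can be compared between genes. Depth was 22642563 to 56585952 fragments per library. Differences were tested with limma on log2(FPKM + 1) over the 11832 genes whose mean over all libraries was at least 0.5 FPKM, and a gene was called at a Benjamini-Hochberg adjusted p under 0.05. Of the 9 genes, 8 passed this filter and Cav3 did not; Tmem8c, Gm7325, Trim72 and Dysf passed through their DM3 libraries only. A difference on this scale understates the change of low genes, and fewer than 3 fragments in a library was treated as not detectable at this depth. The knocked-out microRNA genes were not analysed here, so the genotype labels were not checked against them. Of 6 myotube genes, 5 were above 0.5 FPKM on average in both DM3 groups, and Actn2, a marker of mature sarcomeres, stayed at or below 0.228 FPKM. At DM3 the summed level of the 6 was 521 to 950 FPKM in the control libraries, 909 and 932 in the clones in culture 1, and 225 and 292 in the clones in culture 2. The sum of 5 proliferation genes was 221 to 380 FPKM over the 8 GM libraries and 33.4 to 117 over the 8 DM3 libraries. In bulk RNA, fewer cells of a type and less RNA per cell cannot be told apart.

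In control cells, differentiation raised Tmem8c, Trim72, Dysf and Ncam1, lowered Myof and left Gm7325, Cav1 and Cav2 uncalled. That is 4 genes higher and 1 lower of 8 tested, where 23.2% of all tested genes were called higher, 38.3% lower and 61.5% in either direction. In knockout cells 6 rose (the same 4 with Gm7325 and Cav2) and Myof fell, against a background of 24.9% higher, 36% lower and 60.9% in either direction. Between genotypes, no member of the set was called in GM, where 2.06% of genes were called by limma, and 1 had an unadjusted p under 0.05 (voom on recovered fragments called 0 as well). In DM3, Cav2 was higher and Trim72 lower in knockout cells, with 2.02% of all genes called higher, 1.36% lower and 3.38% either way. The genotype difference itself changed between stages for Trim72 alone of the 8, by an interaction test that called 0.254% of genes, and no member was called with line and culture as a block (Trim72 adjusted p = 0.0622) or with lines averaged (0.156). The median difference of the 8 genes was 0.05 between genotypes in GM and 0.07 in DM3, beside -0.01 and 0.01 over all tested genes. With differentiation the median over all tested genes was -0.15 in control and -0.12 in knockout cells, and median-of-ratios scaling moved these to 0.01 and 0.01. The counts called with differentiation include 4 members that passed the filter through DM3, so they are a description and are not read against the background. The p-values for differentiation of these 4 genes, given below, are a description for the same reason.

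**Figure D1:**
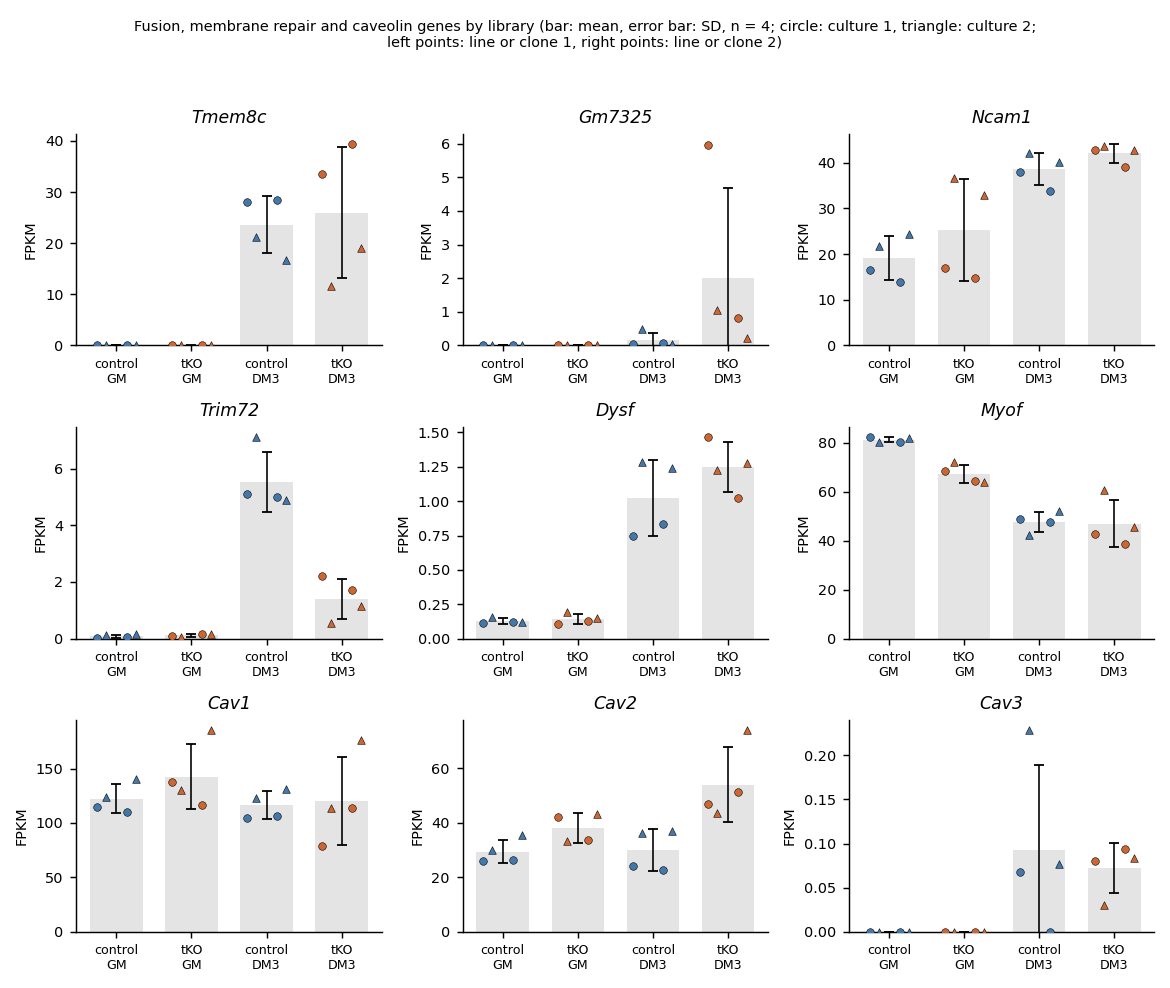
FPKM of each gene (y axis, from 0, one scale per panel) in the 4 groups (x axis), with each library as a point, the group mean as a bar and the SD as an error bar (n = 4). Trim72 in DM3 lies between 4.91 and 7.12 in control and between 0.534 and 2.19 in tKO libraries, and Cav2 in DM3 between 22.7 and 37.0 and between 43.6 and 74.0.

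**Figure D2:**
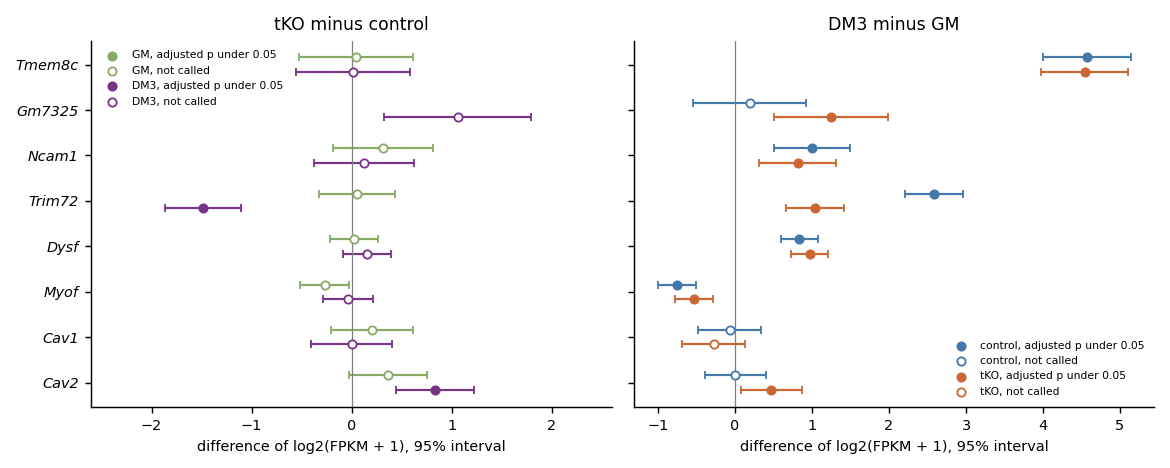
Difference of log2(FPKM + 1) with its 95% interval from limma (x axis) for the 8 tested genes (y axis), between genotypes at each stage and between stages in each genotype, with filled points for calls at an adjusted p under 0.05. Between genotypes Trim72 and Cav2 in DM3 are filled. Gm7325 has no point for genotype in GM, where every library was at 0.

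Of the fusion genes, Tmem8c, encoding Myomaker on chromosome 2 (27061636 to 27072179, minus strand), came on strongly with differentiation in both genotypes. It was listed at 0.0414, 0, 0.0215 and 0 FPKM in control GM and at 0.146, 0.032, 0 and 0.0235 in tKO GM, which is 0 to 6 fragments. In DM3 it reached 28.0, 21.3, 28.5 and 16.8 FPKM in control and 33.6, 11.7, 39.4 and 19.1 in tKO libraries. Every DM3 library was far above every GM library, and the genotypes overlapped. The rise was 4.57 ± 0.27 (SE) on the log2(FPKM + 1) scale in control cells and 4.54 ± 0.27 in knockout cells (limma, adjusted p = 1.98e-09 and 2.29e-09). The genotype difference in DM3 was 0.017, with a 95% interval of -0.55 to 0.59 (limma, adjusted p = 0.985). Both tKO culture 1 libraries were above all control libraries and those of culture 2 were below them (11.7) or among them (19.1), so the difference within culture 1 was 0.35 and within culture 2 -0.32. The myotube sum moved alike in these libraries, at 909 and 932 against 225 and 292 FPKM; its part in the Tmem8c values was not tested.

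Gm7325, encoding Myomixer on chromosome 17 (45600967 to 45602102, minus strand), had no fragment in any of the 8 GM libraries. Control DM3 libraries held 0.0307, 0.477, 0.0737 and 0.0346 FPKM, and 3 of these 4 were under 3 fragments. In tKO DM3 the values were 5.96, 1.06, 0.805 and 0.226 FPKM, from 6 to 163 fragments. The tKO libraries were the higher ones, but their lowest lay below the highest control library, so the groups overlapped. In knockout cells the gene rose with differentiation by 1.25 ± 0.35 (SE; limma, adjusted p = 0.00543), and its mean in DM3, 2.01 ± 2.65 FPKM (SD, n = 4), was at least 16.1-fold higher than the floor of 3 fragments per library in GM. Without clone 1 culture 1 the rise was 0.73 (limma, adjusted p = 0.00156), the DM3 mean 0.697 ± 0.428 FPKM (SD, n = 3) and the fold at least 5.57. The gene passed the low-value filter only through that 1 library, clone 1 culture 1 of knockout DM3, the group where it is high. Over the other 15 libraries its mean of 0.181 FPKM was under the 0.5 required, so the calls of Gm7325 are given as a description. In control cells the change of 0.19 did not pass (limma, adjusted p = 0.658). The genotype difference in DM3 was 1.06 ± 0.35 (SE) and did not pass (limma, adjusted p = 0.118), while it did without clone 2 culture 2 (1.38, adjusted p = 0.0314) or without clone 2 (1.73, adjusted p = 0.00751). Without clone 1 culture 1, the library at 5.96 FPKM, it was 0.54 (adjusted p = 0.0659), and without clone 1 it was 0.38 (adjusted p = 0.269). The stage-by-genotype interaction of 1.06 did not pass either (limma, adjusted p = 0.453).

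Ncam1, the adhesion molecule on chromosome 9 (49504361 to 49798922, minus strand), was present at both stages. Control libraries held 16.5, 21.7, 14 and 24.4 FPKM in GM and 38.1, 42.1, 33.9 and 40.2 in DM3. The tKO libraries held 16.9, 36.7, 14.7 and 32.9 FPKM in GM and 42.7, 43.7, 39.0 and 42.8 in DM3. All DM3 libraries of a genotype exceeded its GM libraries, by a narrow margin in knockout cells because both tKO GM culture 2 libraries were already high. Ncam1 rose by 1.00 ± 0.23 (SE) in control cells (limma, adjusted p = 0.00151) and by 0.81 ± 0.23 in knockout cells (limma, adjusted p = 0.00672). The call in control cells was lost without control line 1 (adjusted p = 0.064). Within knockout cells the rise was 1.32 in culture 1 and 0.31 in culture 2. The sum of the 6 myotube genes in tKO GM was 9.52 and 18.4 FPKM in culture 1 and 72.4 and 26.3 in culture 2. Acta1, at 9.02 to 72.1 FPKM, was the only 1 of them with a mean above 0.5 FPKM in tKO GM. The part of this sum in the Ncam1 values was not tested. Genotype differences of 0.31 in GM and 0.12 in DM3 did not pass (limma, adjusted p = 0.53 and 0.845).

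Of 28 other genes that act in myoblast adhesion and fusion, 22 were tested. With differentiation 5 rose and 10 fell in control cells, and 6 rose and 10 fell in knockout cells, where 61.5% and 60.9% of all genes were called either way. By direction, 23.2% of all genes were called higher and 38.3% lower in control cells, and 24.9% and 36% in knockout cells. The median changes were -0.24 and -0.15, beside -0.15 and -0.12 over all genes. Tmem182, a membrane protein of muscle cells, rose by 2.28 in control and 2.70 in knockout cells (limma, adjusted p = 7.45e-09 and 1.46e-09), from at most 0.174 FPKM in the GM libraries to 3.14 or more in the DM3 libraries. It passed the low-value filter only through its DM3 libraries, so these calls are given as a description. Kirrel, an immunoglobulin-family adhesion protein, fell by 1.51 in control cells, and the metalloprotease gene Adam12 fell by 1.78 in knockout cells, while the tetraspanin gene Cd81 rose there by 1.34 (limma, adjusted p = 5.33e-08, 1.33e-06 and 2.07e-07). Between genotypes, 1 gene was higher and 1 lower in GM, and 1 was lower in DM3, where 2.06% and 3.38% of all genes were called either way in GM and DM3. Cdh15, which encodes M-cadherin, averaged 9.79 ± 1.44 FPKM in GM in control lines and 29.7 ± 8.80 in the clones (SD, n = 4), and the difference was 1.47 (limma, adjusted p = 0.000589), and its tKO GM libraries did not overlap those of control GM. Jam3, a junctional adhesion molecule, was 0.920 to 1.31 FPKM in control GM and 0.0224 to 0.240 in tKO GM. In DM3 it was 0.565 to 1.11 in control libraries and 0 to 0.0177 in tKO libraries. Its differences were -0.96 in GM and -0.86 in DM3 (limma, adjusted p = 0.000138 and 0.000394), the second with an adjusted p of 0.0715 without control line 2. Jam3 passed the low-value filter only through its control libraries, where it is high, so these calls are given as a description. None of the 22 passed the interaction test in limma, which called 0.254% of all genes, and 2 had an unadjusted p under 0.05.

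Trim72, the repair protein gene on chromosome 7 (128003989 to 128011393, plus strand), was the member with the smallest adjusted p between genotypes, and it was lower in knockout cells in DM3. It was nearly silent in GM, at 0.0231, 0.114, 0.0480 and 0.149 FPKM in control and 0.0819, 0.0715, 0.168 and 0.171 in tKO libraries. In DM3 it stood at 5.11, 7.12, 5.01 and 4.91 FPKM in control libraries and at 2.19, 0.534, 1.71 and 1.14 in tKO libraries. Every tKO DM3 library was below every control DM3 library, and in GM the genotypes overlapped. The DM3 means were 5.53 ± 1.06 and 1.39 ± 0.716 FPKM (SD, n = 4), 3.97-fold lower in knockout cells, and the difference was -1.49 ± 0.18 (SE) on the log2(FPKM + 1) scale (limma, adjusted p = 0.000112). It was called in all 23 alternatives tried, between -2.16 and -1.29. Trim72 still rose with differentiation in each genotype, by 2.58 ± 0.18 in control and 1.04 ± 0.18 in knockout cells (SE; limma, adjusted p = 9.37e-09 and 0.000102).

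Within culture 1 the Trim72 difference in DM3 was -1.04. The myotube sum there was higher in the tKO libraries (909 and 932 FPKM) than in the control libraries (746 and 521). Within culture 2 the Trim72 difference was -1.93, and the sum was lower in the tKO libraries (225 and 292 FPKM) than in the control libraries (950 and 609). In each culture Trim72 was lower in both tKO libraries than in both control libraries. The genes in that sum differed in direction in DM3. Tnnt3 was 187 to 259 FPKM in control and 69.2 to 140 in tKO libraries, and Myh3 was 7.14 to 16.1 and 15.8 to 79.5. The sum therefore does not describe a myotube state by itself, and its part in the Trim72 values was not tested. Each clone against each control line gave Trim72 differences between -1.67 and -1.31. The rise with differentiation was 2.36 to 2.87 in the 4 control line-and-culture pairs and 0.518 to 1.56 in the 4 tKO pairs. The test of that difference gave an interaction of -1.54 ± 0.25 (SE; limma, adjusted p = 0.0193), which was called in 18 of 31 alternatives. With line and culture as a paired block, which fits cultures of a line at both stages, the adjusted p was 0.0622, and it was 0.0848 with a pseudocount of 0.1, 0.156 with lines averaged and 0.216 with voom. It was also not called without any 1 of the 4 control GM libraries, without control line 1 DM3 culture 2 (adjusted p = 0.0552) or clone 2 DM3 culture 2 (0.055), or without control line 1 (1), control line 2 (0.401) or clone 2 (0.0531). Leaving out the control GM libraries singly gave adjusted p-values of 0.0507 to 0.0552.

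**Figure D3:**
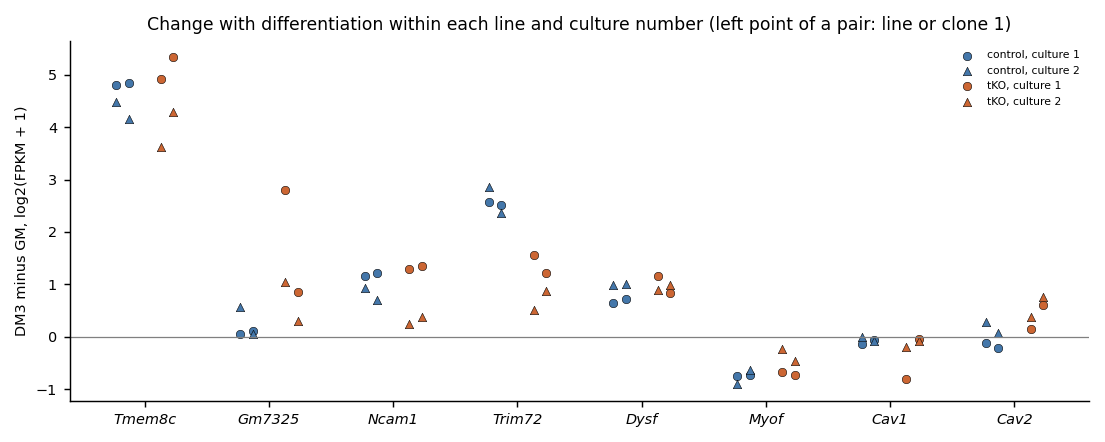
Change from GM to DM3 of log2(FPKM + 1) (y axis) for each gene (x axis) in each line and culture, in blue for control and orange for knockout cells, with circles for culture 1 and triangles for culture 2. The 4 control changes of Trim72 (2.36 to 2.87) lie above the 4 tKO changes (0.518 to 1.56), while those of Tmem8c, Dysf and Cav1 overlap between genotypes.

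The promoter of Trim72 is printed because Trim72 was called lower in knockout DM3, with capitals for the letters CANNTG, the E-box that myogenic basic helix-loop-helix factors such as MyoD and myogenin can bind (read on either strand, since the letters are their own reverse complement). The window runs from 250 bases before to 50 after the RefSeq start on GRCm38.p6. That of Cav2, the other gene called between genotypes in DM3, is given for comparison.
Trim72 promoter (chr7:128004128-128004427, plus strand): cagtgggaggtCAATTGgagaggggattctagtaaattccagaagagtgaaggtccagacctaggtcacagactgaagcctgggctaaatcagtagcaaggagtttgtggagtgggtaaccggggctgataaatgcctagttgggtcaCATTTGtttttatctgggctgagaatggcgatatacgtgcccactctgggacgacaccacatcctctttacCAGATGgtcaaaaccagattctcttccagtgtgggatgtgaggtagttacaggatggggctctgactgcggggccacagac
Cav2 promoter (chr6:17280935-17281234, plus strand): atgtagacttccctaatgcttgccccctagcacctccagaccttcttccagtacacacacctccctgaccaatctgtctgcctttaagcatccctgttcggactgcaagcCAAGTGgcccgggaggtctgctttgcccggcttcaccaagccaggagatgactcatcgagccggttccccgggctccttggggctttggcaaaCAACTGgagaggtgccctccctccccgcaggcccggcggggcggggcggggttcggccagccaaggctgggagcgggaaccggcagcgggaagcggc
Trim72 held 3 such matches, beginning at bases -239, -102 and -31 from the start, and Cav2 held 2. Cav3 also held 2, the 2 Cav1 promoters 1 each, the 2 Dysf promoters 0 and 1, and Myof 0. Of 32851 promoters of that length, 72.3% held at least 1 match, 39.6% at least 2 and 6.5% at least 4. The Trim72 window lies wholly inside the gene as the deposited table lists it, which begins at base 128003989. The files hold no binding data, so a match is not evidence of binding.

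Dysf and Myof, the ferlin genes, moved in opposite directions as myoblasts differentiated. Dysf (chromosome 6, 84008590 to 84211060, plus strand) was 0.113, 0.159, 0.117 and 0.121 FPKM in control GM and 0.104, 0.194, 0.131 and 0.147 in tKO GM. It was 0.747, 1.28, 0.832 and 1.24 FPKM in DM3 in control libraries and 1.47, 1.23, 1.02 and 1.28 in knockout libraries. The stages did not overlap and the genotypes did. Dysf rose by 0.84 ± 0.11 in control and 0.97 ± 0.11 in knockout cells (SE; limma, adjusted p = 9.95e-06 and 1.97e-06), which is 8.04-fold and 8.69-fold in mean FPKM. The genotype difference in DM3 was 0.16, with a 95% interval of -0.08 to 0.40 (limma, adjusted p = 0.519).

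Myof (chromosome 19, 37899036 to 38043577, minus strand) was the far more abundant ferlin. It stood at 82.4, 80.4, 80.3 and 82.0 FPKM in control GM and 68.6, 72.0, 64.5 and 63.8 in tKO GM. In DM3 it was at 48.7, 42.3, 47.8 and 52.1 FPKM in control and 42.7, 60.9, 38.5 and 45.7 in tKO libraries. Each GM library was above the DM3 libraries of its genotype, all 4 tKO GM libraries were below all control GM libraries, and the genotypes overlapped in DM3. Myof fell by 0.76 ± 0.12 in control and by 0.53 ± 0.12 in knockout cells (SE; limma, adjusted p = 3.45e-05 and 0.000938). The GM difference between genotypes, 81.3 ± 1.09 against 67.2 ± 3.82 FPKM (SD, n = 4), was -0.27 ± 0.12 (SE) and did not pass over all genes (limma, unadjusted p = 0.0333, adjusted p = 0.241). It was -0.29 within culture 1 and -0.26 within culture 2, and -0.34 to -0.20 for each clone against each control line. The DM3 difference was -0.04, with a 95% interval of -0.29 to 0.21. Within a library, Myof exceeded Dysf by 506 to 729 times in control GM, by 372 to 662 times in tKO GM, and by 32.9 to 65.2 and 29.1 to 49.7 times in DM3.

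Of 27 other genes of membrane repair (annexins, calpains, ESCRT and vesicle-fusion genes, Ahnak and Bin1), 24 were tested. With differentiation 7 rose and 10 fell in control cells and 6 rose and 12 fell in knockout cells, where 61.5% and 60.9% of all genes were called either way. By direction, 23.2% of all genes were called higher and 38.3% lower in control cells, and 24.9% and 36% in knockout cells. The median changes were -0.14 and -0.24, beside -0.15 and -0.12 over all genes. Ahnak2, which encodes a giant scaffold protein, fell by 2.39 in control and by 1.99 in knockout cells (limma, adjusted p = 6.93e-06 and 4.18e-05), and its relative Ahnak fell by 1.23 in control cells. In knockout cells the annexin gene Anxa1 fell by 1.43 and the muscle calpain gene Capn3 rose by 1.36 (limma, adjusted p = 2.21e-05 and 2.99e-07). Bin1, a gene of membrane curvature and T-tubules, rose by 1.18 in control cells (limma, adjusted p = 5.57e-07). The means moved the same way in the other genotype. Ahnak went from 98.7 to 44.9 FPKM and Bin1 from 67.4 to 142 in knockout cells. Anxa1 went from 378 to 206 FPKM and Capn3 from 2.17 to 4.97 in control cells.

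Between genotypes 1 of the 24 was lower in GM and 1 higher in DM3, where 2.06% and 3.38% of all genes were called either way in GM and DM3. Capn3 averaged 2.17 ± 0.209 FPKM in GM in control lines and 1.10 ± 0.388 in the clones (SD, n = 4), and the difference was -0.61 (limma, adjusted p = 0.026). It was called in 12 of 23 alternatives, and lost without any 1 control GM library, without either tKO clone 1 GM library, or without control line 1, control line 2 or clone 1, with adjusted p up to 0.629. It was also lost with lines averaged (0.16) and with only the libraries compared (0.0579). Anxa2, an annexin that gathers at membrane tears, averaged 242 ± 14.2 FPKM in DM3 in control lines and 338 ± 54.9 in the clones (SD, n = 4), and the difference was 0.47 (limma, adjusted p = 0.0312). It was called in 14 of 24 alternatives, and lost without control line 1 DM3 culture 1 or 2, control line 2 DM3 culture 2, clone 1 DM3 culture 2, control line 1, control line 2 or clone 1, with adjusted p up to 0.587. It was also lost with median-of-ratios scaling (0.0887), lines averaged (0.15) and only the libraries compared (0.161). None of the 24 passed the interaction test in limma, which called 0.254% of all genes, and 4 had an unadjusted p under 0.05.

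Of the caveolins, Cav2 was higher in differentiated knockout cells and Cav1, its neighbour on chromosome 6, was not called; whether the 2 genes differ in response was not tested. Cav2 (17281185 to 17289115, plus strand) was 26.0, 29.9, 26.3 and 35.4 FPKM in control GM and 42.2, 33.2, 33.5 and 43.3 in tKO GM. In DM3 it was 24.0, 36.3, 22.7 and 37.0 FPKM in control and 47.1, 43.6, 51.3 and 74.0 in tKO libraries. All tKO DM3 libraries were above all control DM3 libraries, while in GM 2 of the tKO libraries fell within the control range. The DM3 means were 30.0 ± 7.71 and 54.0 ± 13.7 FPKM (SD, n = 4), 1.80-fold higher in knockout cells, a difference of 0.83 ± 0.19 (SE; limma, adjusted p = 0.0187). Within culture 1 the difference was 1.04 and within culture 2 it was 0.62, with both tKO libraries above both control libraries in each.

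The Cav2 call in DM3 held in 16 of 24 alternatives, with differences between 0.61 and 1.05. It was lost without control line 1 DM3 culture 1 (adjusted p = 0.0709), control line 2 DM3 culture 1 (0.0694) or clone 2 DM3 culture 2 (0.0536). It was also lost without control line 1 (0.327), control line 2 (0.178) or clone 2 (0.0817), and with lines averaged (0.0504) or only the DM3 libraries in the limma fit (0.111). In GM the difference of 0.36 ± 0.19 did not pass (SE; limma, adjusted p = 0.329), nor did the interaction of 0.47 (95% interval -0.09 to 1.02, limma, adjusted p = 0.536), so a larger difference in DM3 than in GM was not shown. With differentiation Cav2 rose in knockout cells by 0.47 ± 0.19 (SE; limma, adjusted p = 0.036), and in control cells the change was 0.0039 (adjusted p = 0.986). The rise in knockout cells was not called without the low-value filter (adjusted p = 0.0733), without clone 2 GM culture 1 (0.0882), clone 2 DM3 culture 1 (0.0543), clone 1 GM culture 2 (0.0923) or clone 2 DM3 culture 2 (0.137), or without clone 2 (0.366).

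Cav1 (chromosome 6, 17306335 to 17341452, plus strand) was the most abundant gene of the set in all 4 groups. It was 115, 123, 110 and 140 FPKM in control GM and 137, 130, 117 and 185 in tKO GM. In DM3 it was 105, 123, 106 and 131 FPKM in control and 78.6, 114, 114 and 176 in tKO libraries. The ranges overlapped in every comparison, with tKO DM3 the most scattered group. The genotype difference in DM3 was -0.00077, with a 95% interval of -0.41 to 0.41 (limma, adjusted p = 0.998), and in GM 0.20 (limma, adjusted p = 0.637). The change with differentiation was -0.07 in control (0.14 with median-of-ratios scaling) and -0.28 in knockout cells (limma, adjusted p = 0.77 and 0.229). In knockout cells it was called without clone 2 DM3 culture 2 or without clone 2, at an adjusted p as low as 0.022.

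Within a library, Cav1 exceeded Cav2 by 3.96 to 4.41 times in control GM, 3.26 to 4.28 times in tKO GM, 3.39 to 4.67 times in control DM3 and 1.67 to 2.61 times in tKO DM3. The tKO DM3 ratios were below those of every other library. These ratios describe the values already tested singly and carry no test. Endothelial cells are rich in caveolins, and the 4 endothelial markers Pecam1, Cdh5, Tek and Kdr summed to at most 0.483 FPKM in any library. Their sum in DM3 was 0.0158 to 0.0434 FPKM in control lines and 0.115 to 0.349 in the clones, and did not overlap between these groups. Its part in the caveolin values was not tested. Of 4 adipocyte markers, only Fabp4 had a group mean above 0.5 FPKM, and the 4 summed in DM3 to 0.791 to 3.36 FPKM in control lines and 0.412 to 3.13 in the clones.

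**Figure D4:**
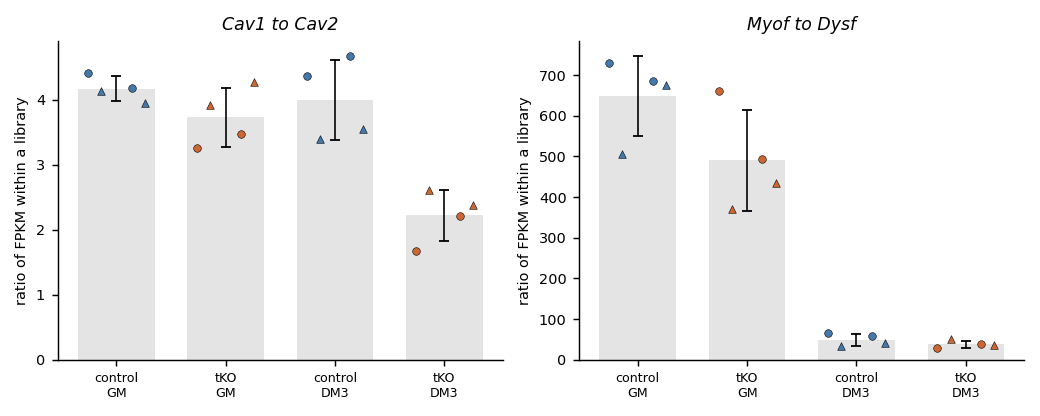
Ratio of FPKM within each library (y axis, from 0) for Cav1 to Cav2 and Myof to Dysf in the 4 groups (x axis), with libraries as points, the mean as a bar and the SD as an error bar (n = 4). Cav1 to Cav2 is 1.67 to 2.61 in tKO DM3 and at least 3.26 in the other groups, and Myof to Dysf falls from 372 or more in GM to 65.2 or less in DM3.

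Cav3, the muscle caveolin gene on chromosome 6 (112459501 to 112472871, plus strand), was barely detected. It had no fragment in any GM library. In DM3 it was 0.0677, 0.229, 0 and 0.0763 FPKM in control libraries (0 to 15 fragments) and 0.0806, 0.0300, 0.0933 and 0.0831 in tKO libraries (1 to 3 fragments). The genotypes overlapped in DM3. In DM3, 1 library of each genotype was under the floor of 3 fragments, control line 2 culture 1 (0 fragments) and clone 1 culture 2 (1 fragment). The gene was below the filter; without the filter, limma called its change with differentiation of 0.12 in control cells (adjusted p = 0.0366) but not that of 0.10 in knockout cells (adjusted p = 0.0915) or its genotype difference in DM3 (adjusted p = 0.895).

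Of 8 other caveola genes, 7 were tested, and none was called between genotypes by limma at either stage, with 2 at an unadjusted p under 0.05 in each. Over all genes 2.06% were called between genotypes in GM and 3.38% in DM3. With differentiation 1 rose and 4 fell in control cells and 1 rose and 3 fell in knockout cells, where 61.5% and 60.9% of all genes were called either way. By direction, 23.2% of all genes were called higher and 38.3% lower in control cells, and 24.9% and 36% in knockout cells. The median changes were -0.58 and -0.34, beside -0.15 and -0.12 over all genes. Ptrf, which encodes the coat protein cavin-1, fell by 0.84 in each genotype, from 323 ± 15.9 to 181 ± 12.8 FPKM in control and from 300 ± 30.9 to 168 ± 24.0 FPKM in knockout cells (SD, n = 4; limma, adjusted p = 8.99e-06 and 8.08e-06). Prkcdbp, which encodes cavin-3, fell by 0.61 in each genotype (limma, adjusted p = 0.00156 and 0.00157), and lost its call without control line 1 (0.0586) or, in knockout cells, without clone 2 (0.103). Ehd2, whose product holds caveolae at the cell surface, fell by 0.58 in control cells (limma, adjusted p = 0.00892), which was lost without control line 1 (0.227) or control line 2 (0.0575). Pacsin3, a membrane-bending protein gene, rose by 0.68 in knockout cells (limma, adjusted p = 2.55e-05). The means of both moved the same way in the other genotype. Ehd2 went from 99.5 to 79.2 FPKM in knockout cells, with overlapping libraries, and Pacsin3 from 18.8 to 28.4 in control cells.

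In order of level, control DM3 libraries ran from Cav1 (116 ± 13.1 FPKM) through Myof (47.7 ± 4.05), Ncam1 (38.6 ± 3.51), Cav2 (30.0 ± 7.71), Tmem8c (23.6 ± 5.63), Trim72 (5.53 ± 1.06) and Dysf (1.03 ± 0.276) to Gm7325 and Cav3 (SD, n = 4). Ranges of neighbours overlapped for Ncam1 with Cav2, Cav2 with Tmem8c, and Gm7325 with Cav3. In tKO DM3 the order of means differed in that Cav2 stood second and Gm7325 stood above Trim72 and Dysf. The ranges of Cav2, Myof, Ncam1 and Tmem8c overlapped in turn, as did those of Gm7325, Trim72 and Dysf. The place of Gm7325 came from clone 1 culture 1 (5.96 FPKM), and in every other tKO DM3 library Gm7325 was below Dysf.

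The genes whose log2 levels followed each member most closely over the 16 libraries are given as a description, since libraries fall into 2 stages that any differentiation gene would separate. Tmem8c was nearest to Mylpf (r = 0.995), Tnni2 and Hfe2, the first 2 encoding fast-muscle sarcomere proteins. Trim72 was nearest to 2700060E02Rik (r = 0.976), Prss36 and Ppp1r12b, and Dysf to Zfr2 (r = 0.991), Hspb7 and Csdc2. Gm7325 was nearest to 8430408G22Rik (r = 0.961), H2-M10.1 and Lmo2, Ncam1 to Lrrc27 (r = 0.948) and Cyp4f13, and Myof to Ybey (r = 0.967), Nvl and Sptlc2. The caveolins had looser matches, Cav1 to Mybl1 (r = 0.872), Rcn2 and Golim4, and Cav2 to Ptplb (r = 0.891), Btc and Aldh1a7. Within the 8 DM3 libraries alone the correlation of Trim72 with Prss36 was 0.977, that of Cav1 with Cav2 was 0.442 and that of Ncam1 with Lrrc27 was 0.0513. These libraries span both genotypes, and Trim72 and Prss36 were both called lower in knockout DM3, so their value includes the genotype difference. Within the 8 GM libraries it was 0.111.

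Whether counting used the strand is not given in the sources used here. Genes on the opposite strand overlap Trim72 (Gm15533), Dysf (Gm15475), Cav1 and Cav2 (Gm15581) and Ncam1 (Gm11149). These had at most 8 fragments in any library.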

How the data were processed

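Poly(A)-selected RNA of 16 C2C12 libraries was analysed from 1 table of FPKM that the authors deposited, with 1 column per library and gene lengths. Per the submitters' processing notes, STAR, DESeq and the mm10 build were used, with no versions or roles. The annotation release, the counter and the strand setting are not given in the sources used here. FPKM times length was a whole number of steps of 1 size per library for 100% of values above 0 (tolerance 0.01), so fragments were recovered and depth (22642563 to 56585952) and floors of 3 fragments computed; these cover counting error only.

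Groups came from sample titles, and 0 columns were left unmapped. log2(FPKM + 1) of 11832 genes with mean FPKM of at least 0.5 was fitted with limma 3.58.1 (R 4.3.3), with 1 mean per group, moderated variances with trend and robust options, and p-values adjusted by Benjamini-Hochberg across these genes. Intervals are 95%. The script was tested on simulated data. Fits with voom on recovered fragments, other pseudocounts, filters, scalings, blocks and libraries left out were alternatives; for the pathway-list genes and Prss36 these were added after seeing the data.

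The named genes were all 9 members, the called genes of 3 pathway lists (at most 3 per list and comparison, by size of change) and the 3 closest protein-coding genes by correlation, of which 1 is not reported here. Members and lists were chosen with earlier results of these data known. Cultures with the same line and number correlated between stages in their deviations from group means (r = 0.0771 to 0.323 over 8 pairs), and the line is shared, so stage comparisons have a paired alternative. Mature microRNA and promoter sequences are from RefSeq (GRCm38.p6); promoters matched 6 of the 9 genes. 3′ UTRs were built from GENCODE M21 exons and coding sequences. Proteins were not used here.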

Additional observations from a re-analysis of the deposited data

Results flagged for a closer look

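Some libraries stood far from the other 3 of their group by Dixon's test, which flags about 1 in 20 groups by chance, over 32 groups checked. Gm7325 was at 0.477 FPKM in control line 1 DM3 culture 2, where the other control DM3 libraries were at 0.0737 or less. It was at 5.96 FPKM in clone 1 DM3 culture 1, where the other tKO DM3 libraries were at 1.06 or less. Trim72 was at 7.12 FPKM in control line 1 DM3 culture 2, against 4.91 to 5.11 in the other control DM3 libraries. The gap to the nearest library, as a share of the group's range, was 0.904, 0.854 and 0.91. Without the Trim72 library the DM3 genotype difference remained called by limma, and the interaction did not (adjusted p = 0.0552).

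The interaction of genotype and stage for Trim72 was -1.54 on the log2(FPKM + 1) scale (limma, adjusted p = 0.0193). It did not pass with line and culture as a block (0.0622), with lines averaged (0.156) or with voom (0.216). All 4 control pairs rose by more than all 4 tKO pairs.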

How the results depend on the processing

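Of 15 called results of the members, 11 kept their call under every alternative that tested them and none changed direction. The 11 include differentiation calls of Tmem8c, Gm7325, Trim72 and Dysf, which passed the filter through DM3, so for these the count is a description. Fits with libraries or lines left out kept the genes that passed the filter over all 16 libraries. A mean FPKM of at least 5 left Gm7325, Trim72 and Dysf untested. Of 24 uncalled results, 22 stayed uncalled and 11 changed sign under some alternative fit. Differences of uncalled results within 1 culture or between single lines were not counted there, and some of them changed sign as well. In culture 2 the Dysf genotype difference in DM3 was -0.00647 and its interaction -0.0443. The number of members called by interaction fell from 1 to 0 with a pseudocount of 0.1, a mean FPKM of at least 5, the replicate block of line and culture number, line averages, and voom, and was 0 to 1 with libraries or lines left out. The number called between genotypes in DM3 fell from 2 to 1 with a mean FPKM of at least 5, with only the libraries compared and with line averages, and was 1 to 2 with libraries left out. A mean FPKM of at least 5 takes Trim72 (mean 1.78 FPKM) out of the test. Under that setting the lower counts for DM3 and for the interaction are therefore not lost calls. Without a filter, which adds Cav3 to the test, 6 members in control and 6 in knockout cells were called with differentiation, in place of 5 and 7. A mean FPKM of at least 5, which tests fewer members, gave 3 called with differentiation in control and 4 in tKO cells. The replicate block of culture number within stage left Trim72 (adjusted p = 0.000131) and Cav2 (0.00553) called in DM3 and changed no other genotype call; culture numbers deviated together across genotypes (r = 0.543 in GM, 0.343 in DM3), but 2 cultures cannot show pairing.
Sign changes among the alternative fits, all of uncalled differences, were as follows. With TPM, the DM3 genotype difference of Cav1 was 0.0179 and the differentiation change of Cav2 in control cells was -0.0475, and with median-of-ratios scaling that of Cav1 was 0.136. With libraries or lines left out, the GM genotype difference was -0.00554 to 0.099 for Tmem8c, -0.00764 to 0.111 for Trim72 and -0.000601 to 0.0372 for Dysf. The DM3 genotype difference was -0.226 to 0.332 for Tmem8c, -0.176 to 0.0984 for Myof and -0.288 to 0.286 for Cav1. The control change of Cav2 was -0.106 to 0.122. The interaction was -0.304 to 0.285 for Tmem8c, -0.424 to 0.0147 for Cav1 and -0.402 to 0.019 for Ncam1. Except where an alternative leaves fewer genes or libraries, the cause was not tested.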

Other observations

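Genes within 100000 bases of Trim72 were looked at after its values were seen. Prss36, a serine protease gene whose nearest end lies 57264 bases from Trim72 (chromosome 7, 127932638 to 127946725, minus strand), averaged 2.35 ± 0.308 FPKM in DM3 in control lines and 1.47 ± 0.170 in the clones (SD, n = 4). Its difference was -0.44 (limma, adjusted p = 0.0372), and it was called in 9 of 23 alternatives, with adjusted p from 0.0252 to 0.528. It was lost without any control DM3 library, without clone 1 or clone 2 DM3 culture 2, and without any of the 4 lines, and also with a pseudocount of 0.1 (0.113), TPM (0.0844), only the libraries compared (0.193) and lines averaged (0.129). In GM the difference was 0.02 (limma, adjusted p = 0.944). Near Cav2, the only other tested gene was Cav1.

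Of 4 neural markers, Tubb3 alone had a group mean above 0.5 FPKM. In DM3 the 4 summed to 0.537 to 1.44 FPKM in control lines and 2.34 to 7.89 in the clones, and did not overlap between these groups; their part in the Ncam1 values was not tested.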
